A study of Mus musculus with 16 samples.

Results

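Transcript levels of 10 genes for transcription factors of fat cell formation and lipid metabolism were examined: the peroxisome proliferator-activated receptors Pparg, Ppara and Ppard, the CCAAT/enhancer-binding proteins Cebpa, Cebpb and Cebpd, the retinoid X receptors Rxra and Rxrg, the liver X receptor Nr1h3 and the Krüppel-like factor Klf15. They were picked by symbol from the 55536 Ensembl genes of a mouse count table, each symbol led to 1 identifier through the GENCODE M21 annotation of GRCm38 and the rule uses no measured value, though the list was drawn up with earlier results of these data known. RNA came from visceral fat and from red gastrocnemius, the oxidative portion of that calf muscle, of 8 female mice. Of these, 4 carried the genotype labelled Conditional MusMyD88-/-, a loss of the adaptor MyD88 in muscle, and 4 were Cre-Control. Every mouse of both genotypes ran on a wheel for 5 weeks and was then held in a small cage with restricted movement for 8 days, so no sedentary or freely moving group stands beside them. The 16 libraries thus form 4 groups of 4, knockout fat, control fat, knockout muscle and control muscle, and the fat and muscle of a mouse share its number. The sources used here do not give the strain, the age, the promoter that drives Cre or the deleted part of Myd88.

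PPARs and LXRs are nuclear receptors that bind DNA as partners of an RXR and are switched on by fatty acids or oxysterols. In adipogenesis Cebpb and Cebpd come on early and precede Pparg and Cebpa, which then hold each other active and turn on the genes of the mature fat cell. PPARα and PPARδ drive fatty acid oxidation in tissues that burn fat, muscle among them. Klf15 is induced by glucocorticoids in muscle, where it raises amino acid breakdown, and it also takes part in adipogenesis.

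The libraries held 13242243 to 19114782 counts in fat and 15203806 to 21747345 in muscle. Myd88 had 2.13, 2.02, 1.66 and 1.93 CPM (counts scaled to library size and, within the tissue, for composition) in knockout muscle (mice 139, 958, 960 and 29), against 2.17, 2.11, 3.43 and 2.95 CPM in control muscle (mice 131, 137, 138 and 11). The groups overlapped narrowly, and the log2 fold change of -0.47 did not pass the threshold in edgeR's quasi-likelihood test (adjusted p = 0.949); whole muscle also holds cells other than fibres. Among the fat libraries, that of control mouse 138 had a different make-up. Its 8 adipocyte markers summed to 6753 CPM, against 32068 to 40268 CPM in the others. Its 6 smooth muscle markers summed to 16643 CPM against 588 to 1091, and its 6 urothelial markers to 1689 CPM against 11.4 to 31.2. The members' fat results are therefore also given without it. In these bulk samples, fewer cells of a type and less RNA per cell cannot be told apart.

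Pparg encodes PPARγ, the master regulator of fat cell formation, and lies on chromosome 6 at 115360951 to 115490399 (GRCm38, plus strand). Cebpa encodes its partner C/EBPα and lies on chromosome 7 at 35119293 to 35121928 (plus strand). These were the members with the widest gap between tissues, so sequence from the start of each is shown, as RefSeq gives it for GRCm38.p6. Each window runs 5′ to 3′ on the plus strand and holds 250 bases before the annotated start and 30 from it onward. Capitals mark matches, on either strand, to the nuclear receptor half-site AGGTCA, the C/EBP core TTGCNNAA, the TATA box TATAAA or the E-box CACGTG. For Pparg the most upstream and the most downstream of the 3 starts in the table are printed.
Pparg, upstream start, chr6:115360894-115361173: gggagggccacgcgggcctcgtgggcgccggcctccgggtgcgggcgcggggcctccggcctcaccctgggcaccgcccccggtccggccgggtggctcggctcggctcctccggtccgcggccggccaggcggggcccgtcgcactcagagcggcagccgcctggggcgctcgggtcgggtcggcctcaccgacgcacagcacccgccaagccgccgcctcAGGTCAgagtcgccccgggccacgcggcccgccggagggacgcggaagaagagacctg
Pparg, downstream start, chr6:115421816-115422095: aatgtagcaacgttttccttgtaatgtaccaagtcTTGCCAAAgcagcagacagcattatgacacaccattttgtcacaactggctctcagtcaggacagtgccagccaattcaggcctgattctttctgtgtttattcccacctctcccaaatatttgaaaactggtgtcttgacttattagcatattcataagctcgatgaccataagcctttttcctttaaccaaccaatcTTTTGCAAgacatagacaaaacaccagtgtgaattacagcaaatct
Cebpa, chr7:35119043-35119322: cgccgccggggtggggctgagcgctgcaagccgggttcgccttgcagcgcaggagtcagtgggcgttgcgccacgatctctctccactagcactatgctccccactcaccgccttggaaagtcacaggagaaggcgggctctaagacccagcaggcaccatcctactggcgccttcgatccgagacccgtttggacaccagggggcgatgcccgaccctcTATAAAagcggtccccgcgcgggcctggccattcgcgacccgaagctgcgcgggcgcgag
The upstream Pparg window held 1 half-site and no C/EBP core, and the downstream window held 2 C/EBP cores, 1 of them within 16 bases of the start. Of 32851 mouse windows of the same length, 15.3% held AGGTCA, 10.4% TTGCNNAA and 13.1% TATAAA, so single matches are common. The counts are per gene and do not tell the starts of Pparg apart.

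Pparg and Cebpa were far higher in fat than in muscle. With all 16 libraries scaled together, Pparg ran from 81.0 to 192 CPM in fat with a median of 163, against 5.17 to 9.62 CPM in muscle with a median of 6.04. The tissues did not overlap, and the log2 fold change of fat over muscle was 4.61 ± 0.17 (SE, n = 8 each, adjusted p = 1.84e-12 in edgeR). Cebpa ran from 83.2 to 405 CPM in fat with a median of 361, against 3.94 to 11.1 CPM in muscle with a median of 6.22. Its log2 fold change was 5.70 ± 0.33 (SE, n = 8 each, edgeR adjusted p = 3.37e-10), again with no overlap. The lowest fat value of both genes was that of mouse 138. Without that mouse the log2 fold changes in edgeR were 4.72 for Pparg and 5.91 for Cebpa. They were 1.74 for Nr1h3, -2.66 for Rxrg, -2.06 for Ppara, -1.71 for Cebpb, -1.11 for Cebpd, -0.47 for Rxra, -0.35 for Klf15 and -0.15 for Ppard, and the same 9 genes passed the threshold. Between fat and muscle 79.6% of the 17084 genes tested passed the threshold, an adjusted p under 0.05 over all of them, 44% as higher in fat and 35.7% as lower. A call by itself therefore sets no member apart, and the sizes carry the description.

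Nr1h3 encodes LXRα, an oxysterol receptor of the lipid synthesis and cholesterol export programmes (chromosome 2, 91184061 to 91202834, minus strand). It was the other member higher in fat, at 15.9 to 62.3 CPM with a median of 53.3, against 14.1 to 19.97 CPM in muscle with a median of 15.3. The log2 fold change was 1.61 ± 0.21 (SE, n = 8 each, edgeR adjusted p = 3.37e-06). The tissues overlapped through the library of mouse 138 alone, whose 15.9 CPM lay inside the muscle range.

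The members higher in muscle were led by Rxrg, which encodes RXRγ, the retinoid X receptor typical of striated muscle (chromosome 1, 167598384 to 167639623, plus strand). Rxrg ran from 1.46 to 7.29 CPM in fat with a median of 6.62, against 34.0 to 48.9 CPM in muscle with a median of 44.1, a log2 fold change of -2.84 ± 0.23 (SE, n = 8 each, edgeR adjusted p = 1.36e-08). Ppara, the receptor that drives fatty acid oxidation (chromosome 15, 85734983 to 85802819, plus strand), ran from 4.23 to 16.5 CPM in fat with a median of 7.17, against 19.04 to 37.0 CPM in muscle with a median of 29.6. Neither gene had tissues that overlapped, and the log2 fold change of Ppara was -1.87 ± 0.23 (SE, n = 8 each, edgeR adjusted p = 2.2e-06). Cebpb encodes an early adipogenic and stress-responsive factor (chromosome 2, 167688915 to 167690418, plus strand). It ran from 14.5 to 23.2 CPM in fat with a median of 17.3, against 44.3 to 74.5 CPM in muscle with a median of 62.4. Its log2 fold change was -1.77 ± 0.12 (SE, n = 8 each, edgeR adjusted p = 1.3e-09). Of the Cebpb exon sequence, 312 of 1504 bases overlap Tmem189 on the other strand, and since the strand setting of the counting is not given, reads of these genes may not be fully separated.

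Rxrg has 2 starts in the table, and the window of the downstream start is shown for its matches.
Rxrg, downstream start, chr1:167618015-167618294: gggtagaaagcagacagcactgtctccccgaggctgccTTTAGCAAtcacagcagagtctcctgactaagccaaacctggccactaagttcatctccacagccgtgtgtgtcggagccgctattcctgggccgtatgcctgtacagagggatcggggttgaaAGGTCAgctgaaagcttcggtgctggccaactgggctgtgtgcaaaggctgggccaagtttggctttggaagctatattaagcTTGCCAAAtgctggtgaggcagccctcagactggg
It held 2 C/EBP cores and 1 half-site, while the window of the upstream start held no match to these motifs. The windows of Ppara, Ppard and Nr1h3 and of the upstream Rxra start held none either. Matches were present in the windows, not printed, of the middle Pparg start, Cebpb and the downstream Rxra start.

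For the remaining 4 members the direction between tissues depended on the scaling. With factors that centre most genes, Cebpd (log2 fold change -1.10), Rxra (-0.50) and Klf15 (-0.52) were called lower in fat in edgeR and Ppard (-0.13, adjusted p = 0.304) was not called; with total counts alone the values were 0.11, 0.70, 0.66 and 1.07, all in the other direction, with Ppard, Rxra and Klf15 called higher in fat and Cebpd not called (edgeR adjusted p = 0.585). The total-count scaling moved the median of all genes from 0.16 to 1.36 on the log2 scale, and 87.8% of its calls were higher in fat, against 55.2% with the factors. Pparg, Cebpa, Nr1h3, Rxrg, Ppara and Cebpb kept their direction and their call under both, at 5.79, 6.86, 2.78, -1.67, -0.64 and -0.58 with total counts. Relative to the median of all genes under the same scaling, the 4 genes stood at -0.28, -1.25, -0.65 and -0.67 (Ppard, Cebpd, Rxra and Klf15) with the factors and at -0.29, -1.25, -0.66 and -0.71 with total counts. The call of Klf15 also rested on single mice: leaving out mouse 139, 958 or 29 gave edgeR adjusted p-values of 0.0751, 0.0857 and 0.0647.

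**Figure D1:**
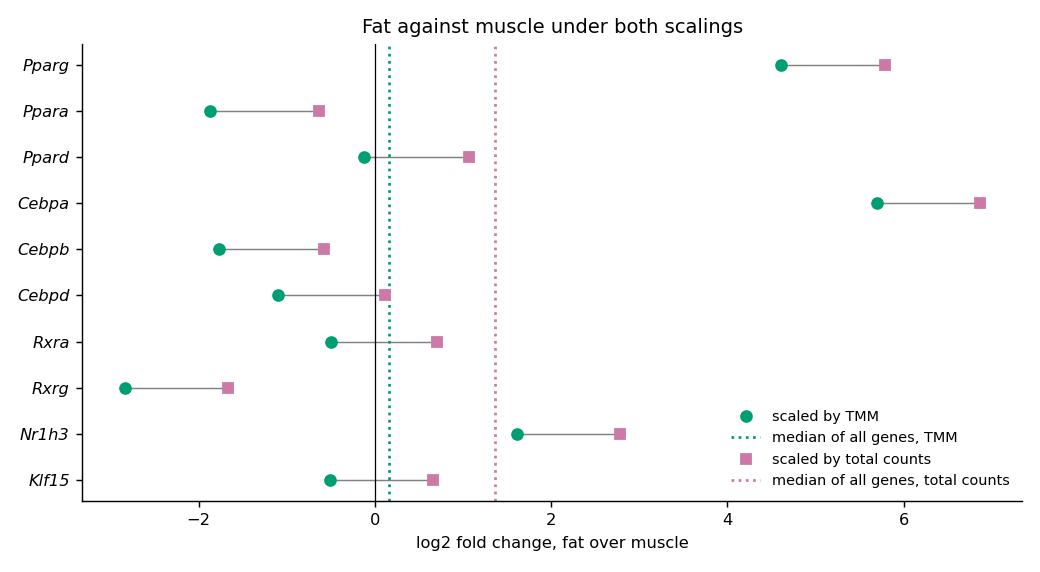
Log2 fold change of fat over muscle (horizontal axis) for the 10 genes, with the 16 libraries scaled by composition factors (circles) or by total counts (squares), and the median of all genes under each as a dotted line. Pparg, Cebpa and Nr1h3 lie right of zero and Ppara, Cebpb and Rxrg left of it under both scalings, while Ppard, Cebpd, Rxra and Klf15 cross zero.

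The make-up of each family within a library does not depend on scaling. Levels per exon length were used for this, as TPM (counts divided by GENCODE exon length and brought to a common sum in each library). Pparg made up 93.3 ± 4.21% of the summed TPM of the PPARs in fat and 19.5 ± 2.83% in muscle (SD, n = 8 each). Ppara made up 4.18 ± 3.60% in fat and 66.6 ± 4.65% in muscle, and Ppard 2.49 ± 0.67% and 13.8 ± 3.46%. No fat library overlapped a muscle library for any PPAR share. Thus the PPAR with the highest level was Pparg in all 8 fat libraries and Ppara in all 8 muscle libraries.

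The C/EBP family showed a like exchange. Cebpa made up 79.6 ± 8.83% of its TPM in fat and 3.47 ± 1.15% in muscle. Cebpb made up 8.93 ± 4.33% in fat and 60.0 ± 3.31% in muscle, and Cebpd 3.50 ± 2.41% and 14.1 ± 1.84%. The rest was almost wholly Cebpg, a partner without an activation domain, at 7.93% in fat and 22.4% in muscle; Cebpe, a granulocyte factor, made up at most 0.107% of the family in any library. Rxra was the leading RXR in both tissues, at 79.1 ± 1.54% in fat and 56.1 ± 2.73% in muscle, and Rxrg took 8.76 ± 2.65% in fat and 31.6 ± 2.62% in muscle. Nr1h3 made up 73.1 ± 9.58% of the LXR pair in fat and 47.0 ± 4.92% in muscle, with Nr1h2, the widely expressed LXRβ, as the remainder (SD, n = 8 each throughout).

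The fat of mouse 138 was the lowest for the shares of Pparg (83.0%, others 94.3 to 95.8%), Cebpa (57.9%, others 81.4 to 85.0%), Rxrg (2.65%, others 8.59 to 11.3%) and Nr1h3 (49.5%, others 74.9 to 78.4%). Its shares of Pparg and Cebpa lay between those of the other fat libraries and those of muscle, its Nr1h3 share lay within the muscle range, and its Rxrg share was below every other library of either tissue.

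**Figure D2:**
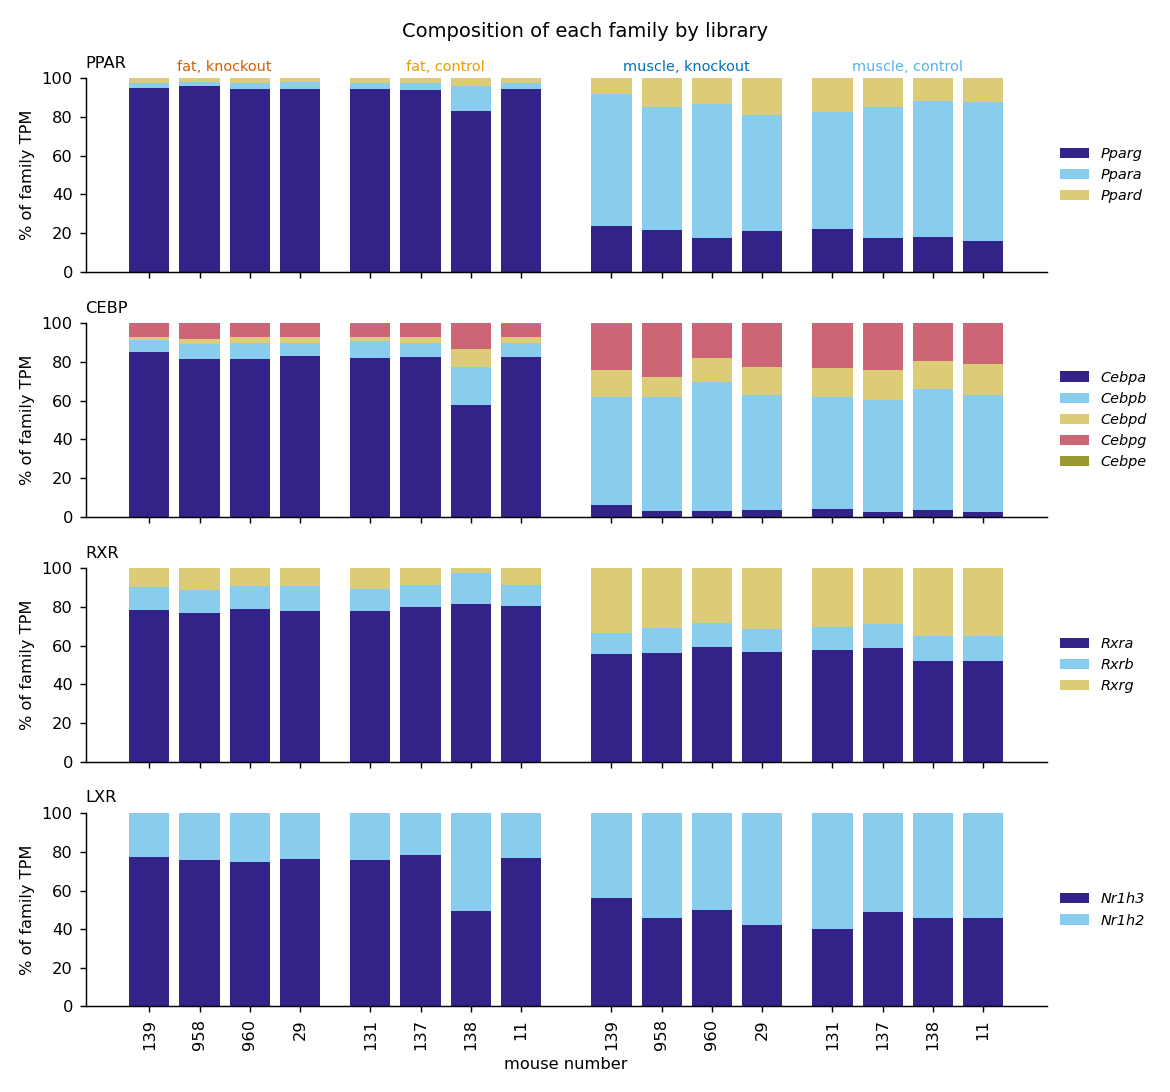
Share of each gene in the summed TPM of its family (vertical axis, percent) in the 16 libraries, labelled by mouse number, for the PPARs, C/EBPs, RXRs and LXRs. Fat bars are mostly Pparg, Cebpa, Rxra and Nr1h3, muscle bars hold more Ppara, Cebpb and Rxrg, and the fat bar of control mouse 138 differs from the other 7.

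Ordered by TPM, the members in fat were Cebpa (605 ± 173), Pparg (261 ± 40.5), Rxra (116 ± 13.3), Nr1h3 (98.1 ± 25.5), Klf15 (85.8 ± 25.3), Cebpb (60.6 ± 8.88), Cebpd (23.0 ± 6.93), Rxrg (12.7 ± 3.67), Ppara (10.8 ± 6.95) and Ppard (6.77 ± 1.14) (SD, n = 8). With all 8 libraries, the only neighbours in that order whose ranges did not overlap were Pparg over Rxra and Cebpb over Cebpd. Without mouse 138 Cebpa over Pparg, Klf15 over Cebpb and Rxrg over Ppara were apart as well. In muscle the order was Cebpb (108 ± 15.1), Rxra (85.9 ± 5.78), Klf15 (65.3 ± 5.62), Rxrg (48.6 ± 5.81), Cebpd (25.5 ± 4.93), Ppara (19.6 ± 5.01), Nr1h3 (17.2 ± 2.55), Cebpa (6.32 ± 2.42), Pparg (5.67 ± 1.41) and Ppard (3.86 ± 0.44). There the ranges of Cebpb and Rxra overlapped, as did those of Cebpd and Ppara, Ppara and Nr1h3, and Cebpa and Pparg.

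**Figure D3:**
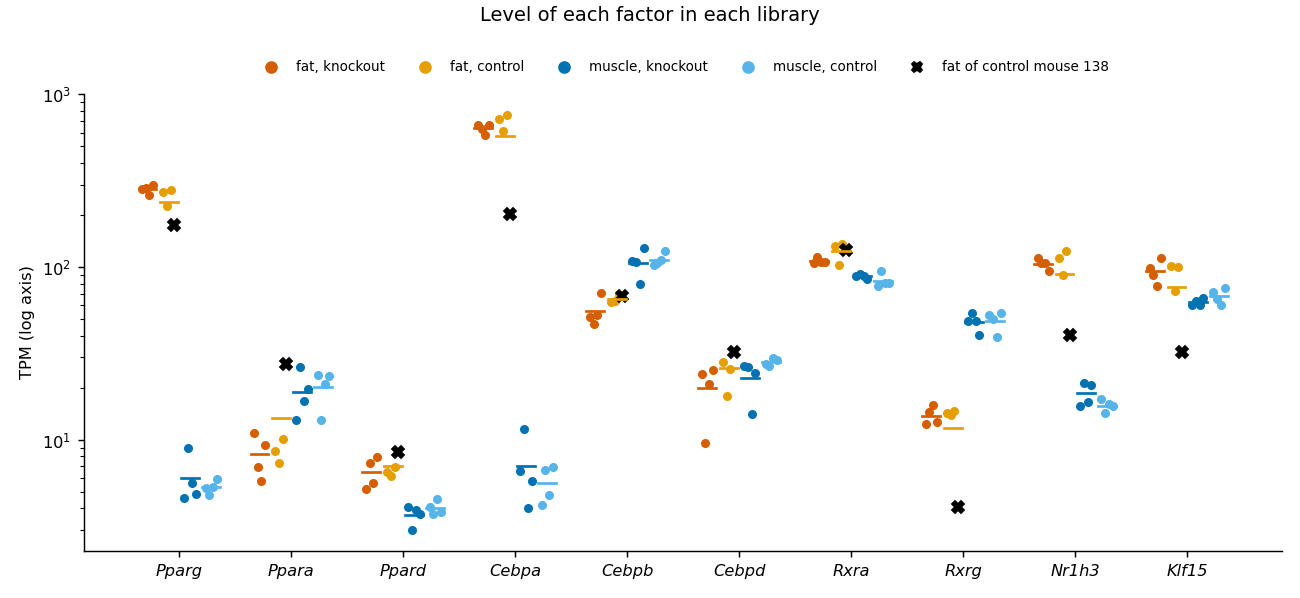
TPM (log axis) of each gene in single libraries (points) with the group mean (bars), for fat and muscle of knockout and control mice. Pparg and Cebpa sit well above the other genes of their families in fat and near 6 TPM in muscle, and the fat library of control mouse 138 (crosses) is low for Pparg, Cebpa, Rxrg, Nr1h3 and Klf15 and high for Ppara.

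The study compared the knockout of MyD88 in muscle with its Cre controls, and none of the 10 genes passed the threshold for it in either tissue. In muscle 2 of 14183 genes tested passed (0.0141%) and in fat 1 of 16323 (0.00613%), or 6 of 16579 (0.0362%) without mouse 138. In muscle 0 of the 10 had an unadjusted p under 0.05 in edgeR, against 5.04% of all genes. No gene passed the test of a difference between the genotype effects in fat and muscle in edgeR (0% of 17084, 1229 with an unadjusted p under 0.05; DESeq2 called 13), and the members' adjusted p-values there were 0.815 or higher. The paragraphs that follow give the levels and the intervals of the difference.

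In muscle no PPAR was called by genotype, and the intervals were too wide to show that the levels were alike. Pparg had 6.21, 4.08, 3.63 and 3.42 CPM in knockout mice 139, 958, 960 and 29, against 3.65, 3.98, 4.27 and 4.18 CPM in control mice 131, 137, 138 and 11. Mouse 139 alone stood above the control range, and the log2 fold change was 0.09 with a 95% interval of -0.30 to 0.48, or -0.12 without that mouse. Ppara had 23.7, 15.8, 19.1 and 12.6 CPM in knockout muscle, against 12.8, 20.4, 22.2 and 24.5 CPM in control muscle, a log2 fold change of -0.18 (-0.72 to 0.36). Ppard, the PPAR linked to the oxidative fibre programme (chromosome 17, 28232700 to 28301474, plus strand), averaged 6.82 ± 1.08 CPM in knockout muscle and 7.78 ± 0.79 CPM in control muscle (SD, n = 4 each), with a log2 fold change of -0.18 (-0.47 to 0.10). The groups overlapped for all 3.

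Cebpd was the only member whose muscle groups did not overlap. This early adipogenic factor, also induced by glucocorticoids and inflammation, lies on chromosome 16 at 15887286 to 15891031 (plus strand). It had 23.1, 12.9, 23.0 and 25.3 CPM in knockout mice 139, 958, 960 and 29, against 25.7, 28.2, 26.6 and 27.7 CPM in control mice 131, 137, 138 and 11. Every knockout value lay below every control value, with 958 far below the rest and 29 just under the lowest control. This gave a log2 fold change of -0.36 ± 0.17 (SE), a 95% interval of -0.75 to 0.03; the edgeR adjusted p was 0.949, and the two-sided exact permutation p was 0.0286, the smallest that 4 against 4 allows. Of all genes tested 3.38% had groups that did not overlap, and 1 of 10 members is too few to set against that. Without mouse 958 the log2 fold change was -0.18. Of the Cebpd exons, 562 of 3746 bases overlap Spidr on the other strand, and 51 of the Cebpa bases overlap Gm45091.

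Cebpa had 7.16, 2.61, 3.88 and 4.36 CPM in knockout muscle, mouse 139 first, against 4.56, 3.19, 4.49 and 2.95 CPM in control muscle. Its log2 fold change was 0.23 (-0.38 to 0.85), and -0.07 without mouse 139. That mouse also had the highest muscle level of adiponectin, Adipoq, a fat cell marker: 23.9 CPM, against 2.38 to 11.2 CPM in the other knockout muscles and 2.28 to 11.6 CPM in the control muscles. Adipoq was picked after its values were seen. The sum of all 8 adipocyte markers was 2188 CPM in the muscle of mouse 139. It ranged from 1953 to 2243 CPM in knockout and from 1655 to 2375 CPM in control muscle. That sum cannot show whether mouse 139 stood apart in fat cells, because it holds Car3, the marker that separates the tissues least. With total counts the log2 fold change of fat over muscle was 3.18 for Car3 and 8.35 for Adipoq. By genotype in muscle, 7 of the 8 markers were above 0 and 1 below, with a median of 0.34 and none called. Whether fat cells in the sample bear on the muscle levels of Cebpa and Pparg was not tested. Cebpb averaged 39.4 ± 8.31 CPM in knockout muscle and 42.6 ± 2.34 CPM in control muscle, a log2 fold change of -0.11 (-0.39 to 0.16).

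Rxra, the main heterodimer partner of the family (chromosome 2, 27676440 to 27762957, plus strand), had the narrowest interval of the members in muscle. It averaged 119 ± 2.08 CPM in knockout muscle and 117 ± 11.0 CPM in control muscle, and its log2 fold change of 0.02 had an interval of -0.15 to 0.19. Rxrg averaged 27.2 ± 2.47 CPM in knockout muscle and 28.9 ± 4.18 CPM in control muscle (-0.09, interval -0.32 to 0.14), and Nr1h3 11.5 ± 1.68 and 10.2 ± 1.0 CPM (0.17, interval -0.09 to 0.43; SD, n = 4 each).

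Klf15 lies on chromosome 6 at 90462576 to 90475238 (plus strand), and its promoter window is shown because it held 3 E-boxes, a motif found in 6.79% of windows.
Klf15, chr6:90462326-90462605: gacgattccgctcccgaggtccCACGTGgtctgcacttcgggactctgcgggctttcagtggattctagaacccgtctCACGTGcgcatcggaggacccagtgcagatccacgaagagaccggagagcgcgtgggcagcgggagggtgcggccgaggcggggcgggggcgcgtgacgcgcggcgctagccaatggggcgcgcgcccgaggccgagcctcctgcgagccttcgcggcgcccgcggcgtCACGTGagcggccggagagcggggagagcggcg
In muscle Klf15 had 41.8, 41.4, 46.9 and 42.2 CPM in knockout mice 139, 958, 960 and 29, against 46.8, 42.5, 51.7 and 53.5 CPM in control mice 131, 137, 138 and 11. The groups overlapped through knockout mouse 960, and 3 of the 4 knockout values lay under the control range. Its log2 fold change was -0.18 ± 0.09 (SE), and the interval ran from -0.36 to 0.01; the adjusted p in edgeR was 0.949 and the two-sided exact permutation p 0.0857.

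Cebpd and Klf15 are both glucocorticoid-inducible, and whether glucocorticoids bear on their values was not tested. A list of 20 other glucocorticoid-responsive genes is described beside them. Some of these were put on it with earlier results of these libraries in view. In muscle 19 were tested and none passed the threshold. The log2 fold change was below 0 for 18 of the 19, with a median of -0.36, against a median of 0.00 and 49.2% below 0 over all genes. The smallest p-values were those of Trim63, the muscle ubiquitin ligase MuRF1, at 206 CPM in knockout muscle and 299 CPM in control muscle (-0.54, edgeR adjusted p = 0.257), and of the metallothionein Mt1, at 7.42 and 12.97 CPM (-0.81, edgeR adjusted p = 0.515). The summed level of the list was 2375 to 2784 CPM in knockout muscle and 3079 to 3336 CPM in control muscle, and these ranges did not overlap. Because of how the list was drawn up, these counts are no independent evidence of its direction, and they describe these 8 libraries only.

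**Figure D4:**
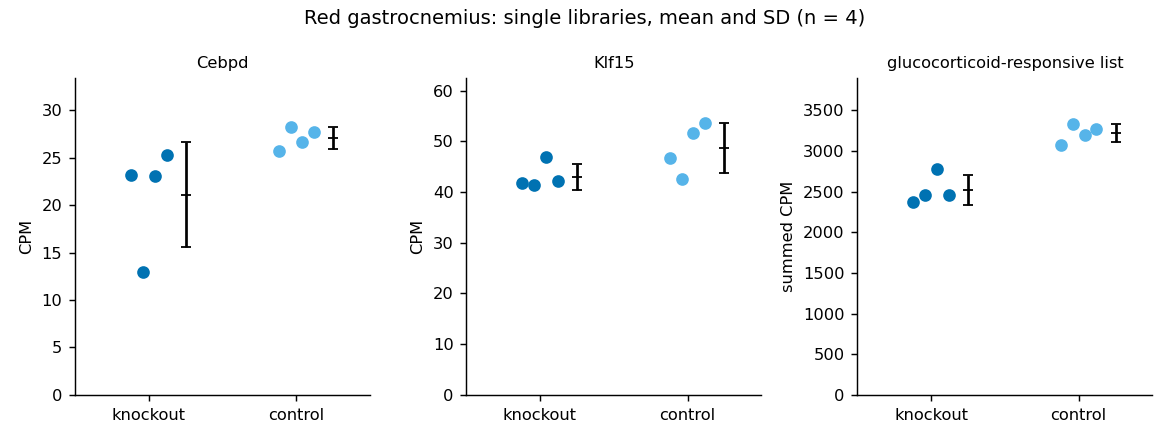
CPM of Cebpd and Klf15 and summed CPM of the 20 glucocorticoid-responsive genes in the muscle of knockout and control mice, with single libraries as points and the mean and SD (n = 4) beside them. Cebpd and the list sum do not overlap between genotypes, while Klf15 does. Some genes of the list were chosen with earlier results of these libraries in view, so the gap of its sum is no independent evidence.

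In fat, the log2 fold changes of the 10 genes ran from -0.52 to 0.34 with all libraries and from -0.26 to 0.10 without control mouse 138. Pparg had 260, 225, 290 and 258 CPM in knockout mice 139, 958, 960 and 29, against 231, 250, 124 and 243 CPM in control mice 131, 137, 138 and 11. The log2 fold change was 0.29 (-0.22 to 0.79) with all libraries and 0.10 (-0.11 to 0.31) without 138, whose value was the lowest of the 8. Cebpa had 508, 447, 578 and 540 CPM in knockout fat, against 556, 611, 128 and 573 CPM in control fat. Its direction turned with that library: the log2 fold change was 0.15 (-0.82 to 1.12) with it and -0.16 (-0.39 to 0.06) without. Nr1h3 had 81.8, 76.7, 78.8 and 87.2 CPM in knockout fat, against 78.4, 94.1, 24.4 and 85.4 CPM in control fat, and Rxrg 10.2, 10.5, 9.54 and 8.71 CPM against 11.0, 10.2, 2.25 and 9.84 CPM. Both also turned: Nr1h3 stood at 0.20 with that library and -0.08 without, and Rxrg at 0.23 and -0.09.

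Ppara moved the other way in that library. It had 8.15, 6.44, 11.8 and 12.98 CPM in knockout fat, against 9.66, 11.7, 25.3 and 9.98 CPM in control fat. The log2 fold change was -0.52 (-1.36 to 0.32) with all libraries and -0.08 (-0.60 to 0.44) without 138, the highest of the 8. Klf15 had 77.2, 63.0, 103.9 and 85.7 CPM in knockout fat, against 69.6, 85.3, 21.7 and 84.9 CPM in control fat, and its log2 fold change was 0.34 with all libraries and 0.04 (-0.32 to 0.41) without 138.

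Cebpb, Cebpd and Ppard had fat levels of mouse 138 within the range of the other 7 libraries. Cebpd had 11.1, 22.9, 31.3 and 27.8 CPM in knockout fat, against 23.1, 29.1, 29.1 and 31.7 CPM in control fat, with mouse 139 far below the rest and a log2 fold change of -0.28 (-0.94 to 0.38), or -0.26 without 138. Cebpb averaged 25.9 ± 6.07 CPM in knockout fat and 29.3 ± 3.71 CPM in control fat (-0.17, interval -0.56 to 0.22, or -0.25 without 138), and Ppard 15.2 ± 3.77 and 15.4 ± 0.54 CPM (-0.02, interval -0.41 to 0.37, and -0.02 without 138; SD, n = 4 each). Knockout mouse 960 had the highest Cebpb of its group, 34.9 CPM, against 21.7 to 23.98 CPM in the other 3.

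Rxra in fat had 193, 170, 193 and 178 CPM in knockout mice 139, 958, 960 and 29, against 192, 225, 164 and 220 CPM in control mice 131, 137, 138 and 11. With all libraries the groups overlapped widely, and the log2 fold change was -0.13 (-0.41 to 0.16). Without 138 it was -0.21 (-0.40 to -0.03, edgeR unadjusted p = 0.0303, adjusted p = 0.252), with knockout mice 139 and 960 just above the lowest control. It was the only member with an unadjusted p under 0.05 in that comparison, against 16.6% of all genes. No member had fat groups apart with all 8 libraries, against 6.36% of all genes.

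**Figure D5:**
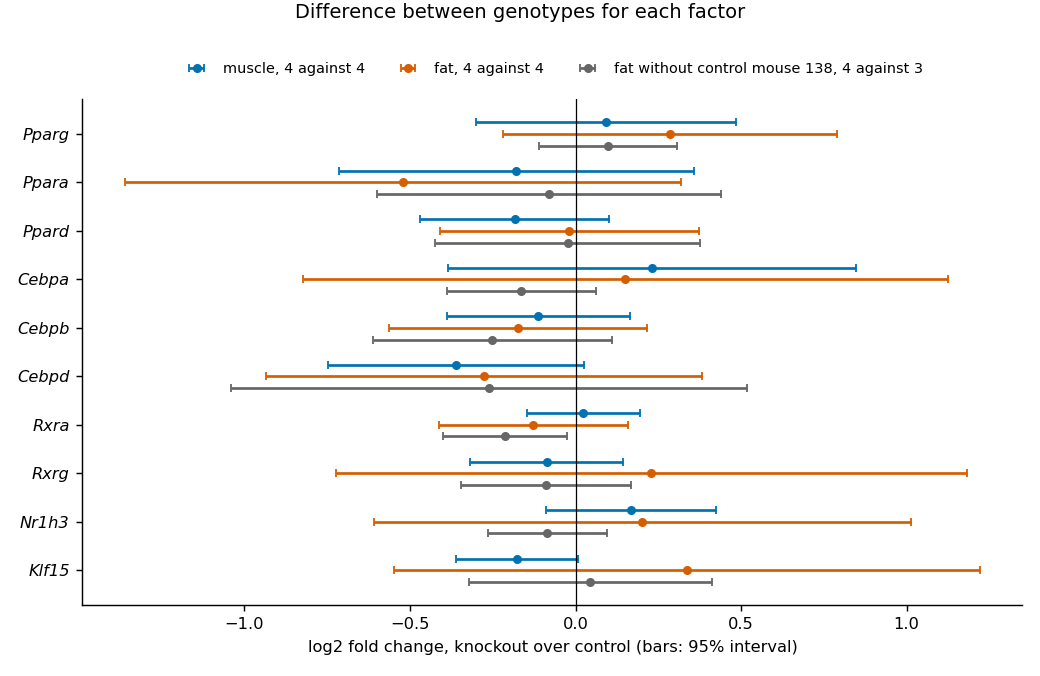
Log2 fold change of knockout over control with its 95% interval from edgeR (horizontal axis) for the 10 genes in muscle, in fat, and in fat without control mouse 138. All muscle and all-library fat intervals reach across 0, and leaving out mouse 138 narrows the fat intervals of Pparg, Cebpa, Rxrg, Nr1h3 and Klf15.

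Relative to the median of the other 7 fat libraries, the fat of mouse 138 had 0.22 times the Rxrg, 0.23 times the Cebpa, 0.26 times the Klf15, 0.30 times the Nr1h3 and 0.50 times the Pparg CPM. Ppara stood at 2.54 times that median, and Ppard, Cebpb, Cebpd and Rxra at 0.85 to 1.05 times. All 6 urothelial markers were detected there, as they also were in the fat of mice 137 and 960, but their level differed. The uroplakin Upk1a led them at 446 CPM, against 0.0669 to 2.53 CPM in the other fat libraries. The brown fat gene Ucp1 was at 78.1 CPM in it, against 0.14 to 29.5 CPM in the others.

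Genes that these factors are known to regulate also differed between the tissues, where 79.6% of all genes were called. Of 22 adipocyte targets of PPARγ and C/EBPα, 20 were called higher in fat and 1 lower in edgeR, with a median log2 fold change of 3.34 over the list and 0.16 over all genes. The lipid droplet protein Cidec (7.45) and Adipoq (7.18) were the highest, and the exception was Slc2a4, the insulin-responsive glucose transporter GLUT4 that muscle shares (-1.80). With total counts 21 were higher and Slc2a4 remained lower. Of 13 LXR targets tested, 11 were called higher in fat, led by the fatty acid synthase Fasn (6.78) and the desaturase Scd1 (6.22), and Smpdl3a (-0.65) and Mylip (-0.38) were called lower; with total counts these last genes turned to 0.53 and 0.85.

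Of 25 PPAR targets of fatty acid oxidation, 15 were called lower in fat and 6 higher, with a median of -1.02. The heart and muscle fatty acid-binding protein Fabp3 (-6.43) and Cpt1b, the muscle form of the carnitine transferase that admits fatty acids to mitochondria (-5.62), lay farthest to the muscle side. The droplet coat Plin2 (2.39) was among those higher in fat. The split depended on scaling: with total counts 7 were lower and 12 higher.

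Most of the coregulators through which these receptors act were also called between tissues. So were 79.6% of all genes, 44% as higher in fat and 35.7% as lower, and the share of genes called sets none of the following lists apart. Of 17, 12 were called lower in fat and 3 higher; with total counts 1 was lower and 15 higher. Under both scalings Ppargc1a, the mitochondrial coactivator PGC-1α, was lower in fat (-3.88, and -2.68 with total counts), and the adipogenic corepressor Tle3 (2.7), Nrip1 (1.2) and the coactivator Ncoa2 (0.29) were higher. Ppargc1b, at -1.14, stood at 0.05 with total counts. Among 35 other factors tested, 20 were called higher and 8 lower, with Id4 (3.13) and Gata3 (2.95) farthest to the fat side and the oestrogen-related receptors Esrrg (-6.18) and Esrrb (-5.72), which drive mitochondrial genes, farthest to the muscle side. The fat side of that order rested on mouse 138, whose fat had 146 CPM of Id4, against 6.66 to 17.9 CPM in the other fat libraries, and 68.6 CPM of Gata3, against 0.74 to 1.83 CPM. Without that mouse Hoxc8 (2.98) lay farthest to the fat side and Id4 stood at 2.06. With total counts the split was 28 and 6. Of 15 amino acid genes linked to Klf15, 5 were called higher in fat, among them Gpt (2.05) and Glul (0.99), and 5 lower, among them Got1 (-5.38) and Bckdk (-1.88); with total counts 11 were higher and 4 lower. Of the 20 glucocorticoid-responsive genes, 5 were called higher in fat, such as Angptl4 (4.46) and Mt1 (1.2), and 10 lower, such as Trim63 (-7.24) and Pdk4 (-4.58), and 14 and 5 with total counts. Of 19 immediate early genes 6 were called higher, such as Fosl2 (1.07) and Zfp36 (0.97), and 5 lower, such as Nr4a1 (-2.39) and Nr4a3 (-1.86), and 15 and 1 with total counts. Without mouse 138 the counts called higher and lower in fat were 21 and 1 for adipocyte targets, 9 and 16 for oxidation targets, 20 and 10 for the other factors and 6 and 7 for immediate early genes, and those of the remaining pathway lists did not change.

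By genotype, no gene of these lists passed the threshold in muscle or in fat, with or without mouse 138. In muscle the coactivator Ppargc1a had the smallest p of them all. It averaged 48.4 CPM in knockout muscle and 72.2 CPM in control muscle, with groups that did not overlap and a log2 fold change of -0.58 ± 0.10 (SE, n = 4 each, edgeR adjusted p = 0.128). Groups did not overlap for 3.38% of all genes tested in muscle, and this gene was picked for its p, so its gap adds no separate evidence. The next coregulator, the acetyltransferase Ep300, was at -0.14 (edgeR adjusted p = 0.949). Over all genes in muscle 49.2% of values lay below 0, with a median of 0.00. Fatty acid oxidation targets had 17 of 25 values above 0 and a median of 0.03, with Pdk4 at -0.36 and Plin2 at 0.19; adipocyte targets had 13 of 21 above 0 and a median of 0.03, with Plin4 at -0.32 and Agpat2 at 0.32. Amino acid genes linked to Klf15 had 10 of 14 values below 0 and a median of -0.07, with the transporter Slc7a8 at -0.58 and the proline oxidase Prodh at -0.40. The other factors had 17 of 34 below 0, with Klf6 at -0.33 and Stat5b at -0.18, and the immediate early genes 5 of 19, with Ier2 at 0.87 and Junb at 0.75.

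LXR targets had 8 of 12 muscle values above 0 and a median of 0.15, with the lipid transfer protein Pltp at 0.39 and Apoe at 0.37 (edgeR adjusted p = 0.907 and 0.932). Macrophages express Nr1h3, Apoe and Pltp too, and all 7 macrophage markers were above 0 in the same comparison, with a median of 0.43. Their sum was 74.8 to 99.3 CPM in knockout muscle and 50.3 to 75.5 CPM in control muscle, and none of the 7 was at 0 in any muscle library. Their part in the Nr1h3 and LXR values was not tested.

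Over all genes in fat, 48.4% of values lay below 0 without mouse 138 (median 0.01) and 52.1% with it (median -0.01). Adipocyte targets had 18 of 22 values below 0 without that mouse, with a median of -0.10. With it they had 17 of 22 above 0, with a median of 0.19. Their smallest p-values without 138 were those of the fatty acid-binding protein Fabp5 (118 CPM in knockout fat and 193 CPM in control fat, -0.71, edgeR adjusted p = 0.14) and of the triglyceride synthase Dgat2 (-0.42, edgeR adjusted p = 0.223). Oxidation targets had 16 of 25 below 0 without 138, with Cpt1a at -0.30 and Plin2 at -0.48. LXR targets had 8 of 13 below 0, with Scd2 at -0.78 and Lpcat3 at -0.32, and amino acid genes 10 of 15, with Gpt at -0.32 and Slc7a8 at -0.36. Coregulators had 14 of 17 above 0, with Ep300 at 0.31 and, against that, Lpin1 at -0.35; other factors had 25 of 34 above 0, with Nr2f2 at 0.34 and Klf7 at 0.33. Of the glucocorticoid-responsive genes 13 of 20 were below 0, and Tsc22d3, the anti-inflammatory leucine zipper GILZ, was the nearest to the threshold: 111 CPM in knockout fat and 189 CPM in control fat, -0.77 ± 0.10 (SE), edgeR adjusted p = 0.0505. With all 8 libraries it stood at -0.62 (edgeR adjusted p = 0.588).

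With all 8 fat libraries, the smallest p-values of each list belonged to the glycerol kinase Gk (-0.47) and Mogat1 (0.52) among adipocyte targets, Cpt1a (-0.50) and Acot1 (-1.81) among oxidation targets, Arl4c (-0.47) and Abcg1 (-0.20) among LXR targets, and Slc7a8 (-0.48) and Ppm1k (0.14) among amino acid genes. They belonged to Ncoa1 (0.26) and Ncor1 (0.32) among coregulators, to Tcf7l2 (0.51) and Klf5 (-3.19) among other factors, and to Cdkn1a (-1.13) and Tsc22d3 among glucocorticoid-responsive genes. Of the immediate early genes 15 of 19 were below 0, with Maff at -0.80 and Jun at -0.31, while without mouse 138 14 of 19 were above 0, with Ier2 at 0.54 and Egr1 at 0.41. The edgeR adjusted p-values of all of these were 0.195 or higher. Klf5 averaged 1.67 CPM in knockout fat and 15.3 CPM in control fat, where mouse 138 had 56.1 CPM and no other fat library more than 2.14 CPM. Acot1 averaged 1.04 CPM in knockout fat and 3.66 CPM in control fat, with 12.7 CPM in mouse 138 and at most 1.76 CPM elsewhere.

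Genes with a profile most like that of a member were sought among 10643 genes, by the root mean square difference of log2(CPM + 0.5) over the 16 libraries after centring each gene on its mean. Nearest to Pparg were the potassium channel Kcnk3 (0.21), the asparagine synthetase Asns (0.23) and the cyclin Ccnd2 (0.24). Nearest to Klf15 were the phosphatidate phosphatase Lpin1 (0.19), Tmem143 (0.21) and Gpt2 (0.21), an alanine transaminase that is also on the Klf15-linked list. Nearest to Ppara, at greater distances, were Herpud1 (0.30), Cpox (0.32) and Pank4 (0.32). The tissue difference and the fat library of mouse 138 weigh on all of these values, which are given as a description.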

How the data were processed

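RNA of 8 visceral fat and 8 red gastrocnemius samples was depleted of ribosomal RNA and made into stranded libraries, per the labels' protocols. The authors deposited raw counts of reads per Ensembl gene, 1 column per library and unscaled; STAR 2.7.0f, featureCounts 1.6.3, DESeq2 1.22.2 and GRCm38 are named in the submitters' processing notes without a role. The annotation release and the strand setting of the counting are not given in these sources. All 55536 identifiers were found in GENCODE M21.

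Genotype within each tissue, and fat against muscle over all 16 libraries, were tested with edgeR 4.0.16 (TMM factors, filterByExpr, robust quasi-likelihood F test) and Benjamini-Hochberg adjustment over all genes tested. All 10 genes passed the filter in every comparison. Two-sided exact permutation tests used log2(CPM + 0.5), with 70 assignments for 4 against 4. Intervals are 95% intervals of the fit. CPM is scaled with TMM factors within a tissue, or over 16 libraries where tissues are compared, and TPM uses GENCODE exon lengths. Reads carry no molecular identifiers, so depth limits only counting error. The number in the subject labels pairs the tissues of a mouse; deviations of paired libraries from their group means correlated at -0.02 to 0.17 over 17084 genes. No pair of libraries of a group agreed within sampling noise.

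The genes and lists were chosen with earlier results of these data known. The text names all 10 genes, up to 4 genes of a pathway list past the threshold or the 2 of smallest p where none passed, the 2 largest per direction between tissues, and 3 nearest profiles for Pparg, Ppara and Klf15. Adipoq in muscle and Upk1a and Ucp1 in the fat of mouse 138 were chosen after their values were seen. The value of 1 oxidation target that the rule names is not reported here. Promoter windows come from RefSeq (GRCm38.p6), which matched 9 of the 10 genes; the window of Cebpd is not shown. The test was tried on simulated counts. Alternatives were other scalings and filters, DESeq2 1.42.0, limma 3.58.1 voom, 1 fit of 16 libraries, the mouse as a block, and leaving out each mouse.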

Additional observations from a re-analysis of the deposited data

Results flagged for a closer look

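Each group of 4 libraries was searched for a value far from the other 3, by the gap to its nearest neighbour as a share of the group's range, over 10 genes and 4 groups. Chance gives such a value in about 1 of 20 independent groups of normally spread values, and 6 of the 40 groups held one. The 40 groups reuse the same 16 libraries, so their number of flags cannot be set against that rate. Of these, 4 belonged to the fat of control mouse 138: Cebpa at 128 CPM against 556 to 611 CPM in the other control fat libraries, Pparg at 124 CPM against 231 to 250, Rxrg at 2.25 CPM against 9.84 to 11.0, and Ppara, the high one, at 25.3 CPM against 9.66 to 11.7. The other values were those of knockout mouse 960: Cebpb at 34.9 CPM in fat, against 21.7 to 23.98 CPM in the other knockout fat libraries, and Klf15 at 46.9 CPM in muscle, against 41.4 to 42.2 CPM in the other knockout muscles.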

How the results depend on the processing

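None of the 10 genes was called by genotype under any alternative run, and 9 differed between fat and muscle in each, except 8 without a filter on low counts and without mouse 139, 958 or 29, where Klf15 was lost. With total counts the 9 held Ppard and not Cebpd. Counts over all genes moved more. In knockout muscle 2 genes became 80 with no filter, 1 with a filter of at least 1 CPM, 9 with DESeq2 and 1 (without mouse 139) to 10 (without mouse 29) when a mouse was left out. In knockout fat 1 gene became 54 with DESeq2, 0 with voom, 6 in 1 fit of all 16 libraries and 0 to 6 when a mouse was left out (6 without mouse 138, 0 without 131, 137, 11, 139, 960 or 29), or 334 with DESeq2 and 5 with voom without mouse 138. DESeq2 called 13 genes with a genotype effect that differed between tissues, against 0. The cause of these moves was not tested.

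With total counts, Ppard (1.07), Cebpd (0.111), Rxra (0.700) and Klf15 (0.655) turned to values above 0, Cebpd without a call (edgeR adjusted p = 0.585). Leaving out a mouse turned the small genotype values of 4 genes in muscle, where Pparg ran from -0.12 to 0.19, Cebpa from -0.068 to 0.42, Cebpb from -0.24 to 0.0068 and Rxra from -0.0082 to 0.091. In fat it turned Ppard (-0.18 to 0.079), Cebpa (-0.16 to 0.30), Rxrg (-0.089 to 0.39) and Nr1h3 (-0.085 to 0.37). Without mouse 138 Cebpa, Rxrg and Nr1h3 stood at -0.173, -0.100 and -0.0935 with DESeq2 and at -0.173, -0.0983 and -0.0826 with voom. The mouse as a block gave 13436 genes between tissues, against 13606, and changed no call of the 10. Of the 19 glucocorticoid-responsive genes, 16 to 19 lay below 0 in knockout muscle across alternatives, against 49.2% of all genes in the main fit. Some of these genes were listed with earlier results of the same libraries in view. The alternatives reuse those libraries, so they are no independent evidence of the list's direction.

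With 4 mice a group, the 95% interval of the genotype effect on Cebpa in fat was -0.82 to 1.12. It was the widest of the 10 in that tissue with all libraries. Without mouse 138 the interval of Cebpa was -0.39 to 0.06, and that of Cebpd was the widest, -1.04 to 0.52.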

Other observations

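Other cell types of the fat samples were followed with marker lists, as summed CPM. Mesothelial markers summed to 51.8 to 232 CPM in knockout fat and 117 to 406 CPM in control fat, endothelial markers to 684 to 871 and 305 to 816 CPM, and markers of fat cell progenitors to 420 to 694 and 473 to 741 CPM. B cell markers summed to 74.9 to 97.8 CPM in knockout fat and to 125 to 168 CPM in control fat without mouse 138, whose sum was 25.0 CPM. The groups of this sum are thus apart only when mouse 138 is left out, where 16% of all genes tested had groups apart. Without that mouse the mesothelial sum of control fat ran from 117 to 155 CPM, the endothelial one from 677 to 816, the progenitor one from 473 to 697, the fibre one from 663 to 1479 and that of brown fat cells from 16.5 to 35.2 CPM. Muscle fibre markers summed to 480 to 5459 CPM in knockout fat and 663 to 2740 CPM in control fat, against 103170 CPM or more in every muscle library. Brown fat cell markers summed to 11.8 to 79.8 CPM in knockout fat and 16.5 to 149 CPM in control fat. This list holds Cox7a1 and Cox8b, which were lower in fat than in muscle (log2 fold change -4.86 and -3.59 with total counts). Its sum was 229 to 294 CPM in knockout muscle and 234 to 253 CPM in control muscle, so it cannot be read as brown fat cells alone. None of the tested genes of these 6 lists passed the threshold by genotype in fat in edgeR, with or without mouse 138.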
